A study of Mus musculus with 8 samples.

Results

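The 10 genes described here carry out or assist the making of fatty acids and their storage as triglyceride, and they were measured in mouse quadriceps with and without Gpcpd1. They were chosen by name, as the genes Thrsp, Acss2, Acly, Acaca, Acacb, Fasn, Scd1, Scd2, Dgat1 and Dgat2. All 10 were found among the 54532 genes of the deposited tables, and all 10 passed the filter on low counts. RNA came from the quadriceps of chow-fed mice aged 3 months and was read by QuantSeq FWD, a kit that sequences each polyadenylated transcript near its 3′ end. The 4 control libraries came from Gpcpd1 Flox/Flox mice negative for Mck Cre. The 4 knockout libraries came from Gpcpd1 Flox/Flox mice positive for Mck Cre, so both groups carried the floxed alleles and the Cre transgene was present in the knockouts only. The muscle creatine kinase promoter drives Cre in muscle fibres, and the other cells of the tissue are not its target. The labels do not say that each library came from a different mouse, so p-values speak of the spread among these libraries, which may be technical.

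De novo lipogenesis builds fatty acids from acetyl-CoA in the cytosol. Acetyl-CoA comes from citrate through ATP citrate lyase (Acly) or from acetate through acetyl-CoA synthetase (Acss2). Acetyl-CoA carboxylases turn it into malonyl-CoA, fatty acid synthase joins these units into palmitate, stearoyl-CoA desaturases add a double bond, and diacylglycerol acyltransferases attach the last fatty acid of a triglyceride. The pathway is most active in liver and fat. In muscle, malonyl-CoA is best known as the inhibitor that keeps fatty acids out of mitochondria. Thrsp, also called Spot 14, is a small acidic protein induced by thyroid hormone and carbohydrate that promotes lipogenesis. Gpcpd1, the deleted gene, encodes an enzyme that hydrolyses glycerophosphocholine.

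Library totals ran from 4404116 to 5183079 reads in controls and from 4806806 to 5405999 in knockouts, and a floor of 3 reads corresponds to 0.555 to 0.681 CPM (reads over the library total, on a common scale), a floor that covers counting error only. The targeted transcript held 688 to 771 reads in controls and 145 to 193 in knockouts, 23.5% of the control level after scaling. Its 3′ reads may lie outside the deleted part and then do not measure the deletion. In the edgeR quasi-likelihood test 1675 of 10691 tested genes (15.7%) passed the threshold of 0.05 on the adjusted p: 948 (8.87%) rose in the knockout and 727 (6.8%) fell. The defining genes of muscle fibres were abundant in every library, and the 10 fibre markers together held 157832 to 175567 CPM in controls and 169686 to 174763 in knockouts.

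Upstream sequences are shown for Thrsp and Acss2, which moved most of the 10 genes. That of Acly, the alternative source of acetyl-CoA, is shown because Acss2 is set against it below. Upstream sequences of 6 of the 10 genes were found by symbol in a RefSeq table of GRCm38.p6. The window searched was the 250 bases before the RefSeq start, and each line prints, 5′ to 3′ on the gene's strand, the first part of it that lies outside every exon of GENCODE M21, which starts Thrsp and Acss2 farther upstream. Capitals mark matches to any of 6 motifs on either strand, and overlapping matches were each counted: CCAAT (the CCAAT box), GGGCGG (the GC box), CACGTG (the E-box of carbohydrate response elements), AGGTCA (a nuclear receptor half-site), TCACNCC (core letters of the sterol regulatory element) and TATAAA (the TATA box).
Thrsp, chr7:97417731-97417800, minus strand: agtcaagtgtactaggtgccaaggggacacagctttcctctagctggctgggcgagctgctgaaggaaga
Acss2, chr2:155517793-155517947, plus strand: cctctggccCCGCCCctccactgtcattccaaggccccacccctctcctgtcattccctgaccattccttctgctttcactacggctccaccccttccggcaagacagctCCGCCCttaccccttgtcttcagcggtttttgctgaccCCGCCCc
Acly, chr11:100528001-100528250, minus strand: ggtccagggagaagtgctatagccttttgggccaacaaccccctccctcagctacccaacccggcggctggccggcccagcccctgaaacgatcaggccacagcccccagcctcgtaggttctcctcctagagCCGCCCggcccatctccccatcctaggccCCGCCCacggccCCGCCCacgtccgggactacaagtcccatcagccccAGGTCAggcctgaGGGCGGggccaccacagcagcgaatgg

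The 70 bases printed for Thrsp held none of the 6 motifs, and the 180 bases left out held 2 CCAAT boxes. The 155 bases printed for Acss2 held 3 GC boxes, and the 95 left out held 1 more and 1 CCAAT box. All 250 bases are printed for Acly, with 4 GC boxes and 1 nuclear receptor half-site and no CCAAT box. Of 32817 windows of the same length in the table, 33.8% held a CCAAT box, 32.7% a GC box and 14.0% a half-site. The 250-base windows were 53.6% G and C for Thrsp, 64.0% for Acss2 and 68.8% for Acly. A match is a description of letters and not a bound site. Sequence beyond the 250 bases was not searched, so a motif missing here may be present farther upstream.

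Of the 10 lipogenesis genes, 3 rose in the knockout and 7 did not pass the test. Thrsp rose 2.62-fold, Acss2 1.73-fold and Dgat2 1.43-fold, so 3 of 10 genes were higher, against 8.87% of all tested genes, and 0 were lower. The same 3 genes were those whose 2 groups of libraries did not overlap, a pattern shown by 19.2% of all tested genes (10.3% with the knockouts higher and 8.92% with them lower). The median log2 fold change of the 10 was -0.02, next to 0.01 over all tested genes, with 5 of the 10 above 0. Values of the core enzymes of fatty acid synthesis lay on both sides of 0. Thrsp and Acss2 had been seen to rise before these 10 genes were put together, and their direction adds no independent support. The count of 3 higher genes includes them and cannot be read as an excess over 8.87%.

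**Figure D1:**
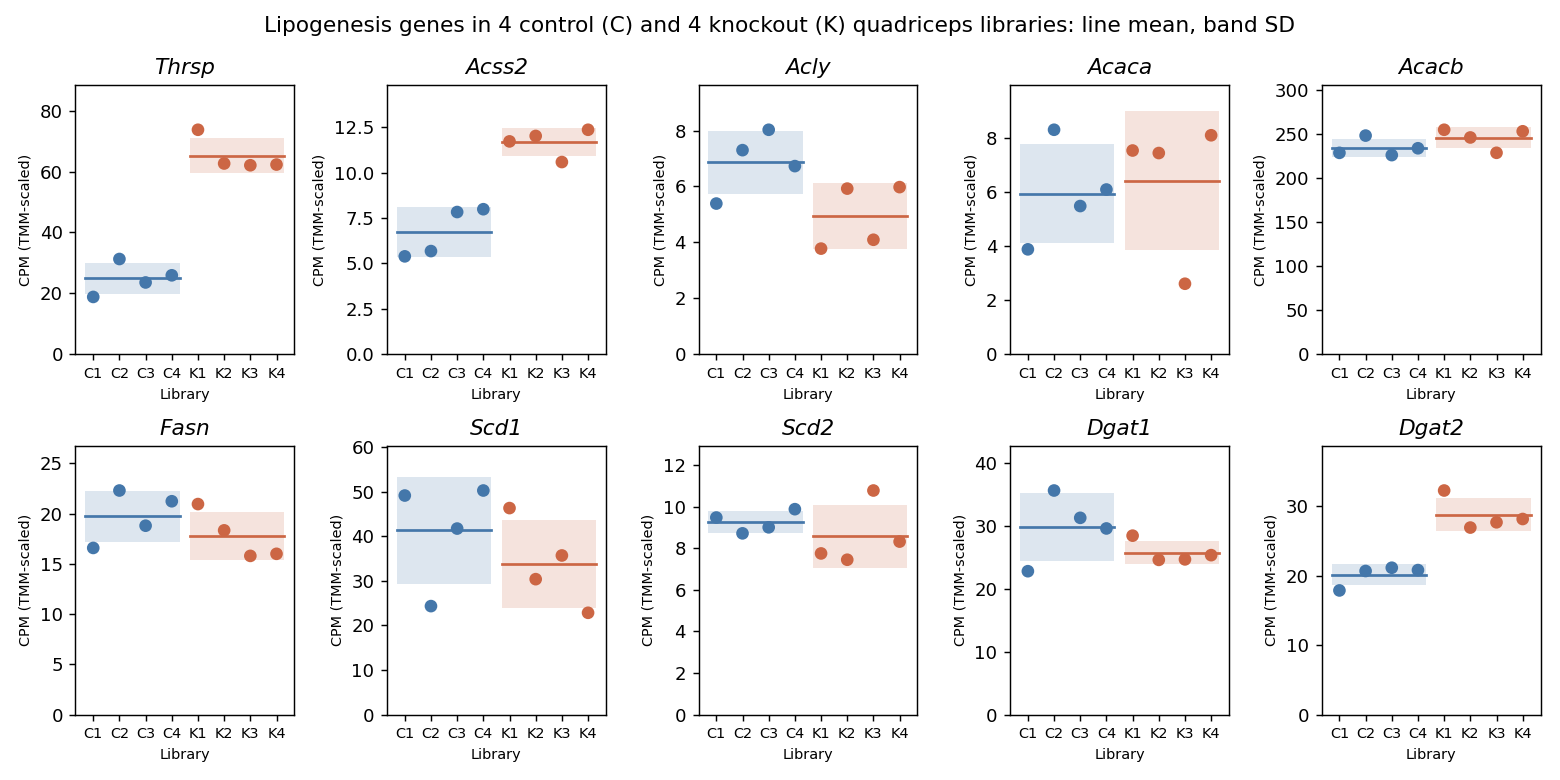
Level of each lipogenesis gene in CPM (linear axis from 0) in control libraries C1 to C4 and knockout libraries K1 to K4, with a line at the group mean and a band of 1 SD on each side (n = 4). The knockout points of Thrsp, Acss2 and Dgat2 all lie above the control points, and in the other 7 panels the groups overlap.

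Thrsp (ENSMUSG00000035686, GRCm38 chr7:97412938-97417730, minus strand, protein coding) had no other annotated gene overlapping its span. Control libraries 1 to 4 held 87, 154, 120 and 123 reads and knockout libraries 1 to 4 held 352, 328, 334 and 292. After TMM scaling (trimmed mean of M values, which sets libraries to a common total) the controls stood at 18.7, 31.2, 23.5 and 25.9 CPM and the knockouts at 73.7, 62.6, 62.1 and 62.3 CPM. Every knockout library held about the same level apart from a higher knockout 1, and the lowest knockout lay well above the highest control. The mean rose from 24.8 ± 5.19 to 65.2 ± 5.71 CPM (SD, n = 4 each). The log2 fold change was 1.39 (SE 0.12, 95% interval 1.14 to 1.64, edgeR adjusted p = 1.7e-08), and Thrsp ranked 29 of 10691 genes by p.

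Acss2 (ENSMUSG00000027605, GRCm38 chr2:155517948-155585724, plus strand) makes acetyl-CoA from acetate in the cytosol and nucleus. Reads were few, at 25, 28, 40 and 38 in controls 1 to 4 and 56, 63, 57 and 58 in knockouts 1 to 4. These counts correspond to 5.38, 5.68, 7.83 and 7.99 CPM in controls and 11.7, 12.03, 10.6 and 12.4 CPM in knockouts. The controls fell into a lower and a higher pair, and both pairs lay below every knockout. The mean rose from 6.72 ± 1.38 to 11.7 ± 0.773 CPM (SD, n = 4 each), which on the log2 scale is 0.79 (SE 0.18, 95% interval 0.42 to 1.16, edgeR adjusted p = 0.0029). The annotated span of Acss2 overlaps 5 other genes. Gss, the glutathione synthetase gene on the opposite strand, shares 395 exon bases with it and held 31 to 41 reads in controls and 32 to 51 in knockouts. Gss itself had a log2 fold change of 0.21 (SE 0.20, edgeR adjusted p = 0.54), and the strand setting of the counting is not given in the sources used here, so reads of these genes may have been exchanged. Ggt7 and the antisense transcript Acss2os share 197 and 335 exon bases with Acss2, and each held at most 4 reads in any library.

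Dgat2 (ENSMUSG00000030747, GRCm38 chr7:99153658-99182719, minus strand) catalyses the last step of triglyceride synthesis, largely with newly made fatty acids. Its levels were 17.9, 20.7, 21.1 and 20.8 CPM in controls 1 to 4 and 32.3, 26.9, 27.7 and 28.2 CPM in knockouts 1 to 4. Control 1 was the lowest control and knockout 1 the highest knockout, and the remaining libraries of each genotype were nearly level. The mean rose from 20.1 ± 1.51 to 28.8 ± 2.39 CPM (SD, n = 4 each), which on the log2 scale is 0.51 (SE 0.12, 95% interval 0.27 to 0.76, edgeR adjusted p = 0.0037).

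**Figure D2:**
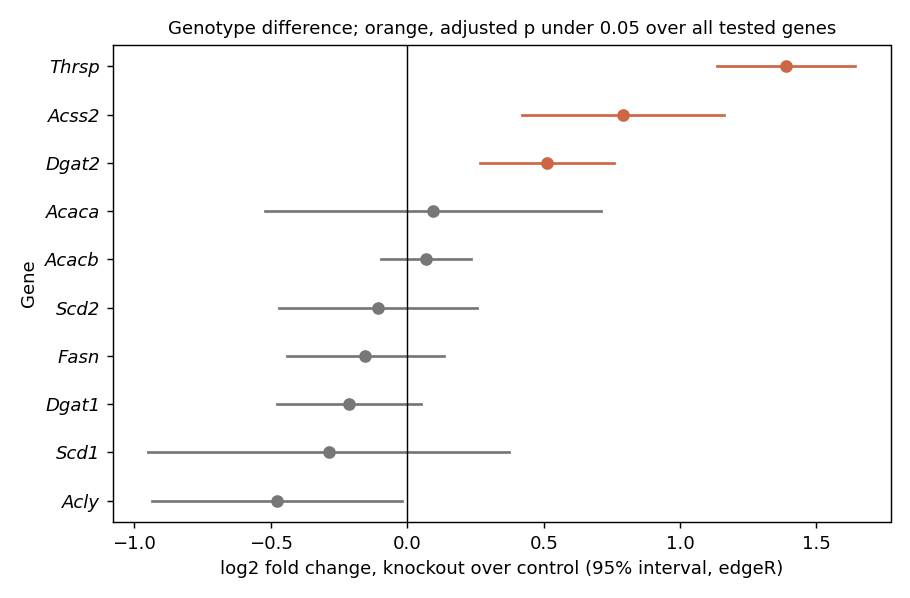
Log2 fold change of each gene, knockout over control, with its 95% interval from edgeR; orange marks an adjusted p under 0.05 over all tested genes and grey all others. Thrsp (1.39), Acss2 (0.79) and Dgat2 (0.51) lie to the right of 0, and Acly (-0.48) lies farthest to the left without passing the adjusted threshold.

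Acly (ENSMUSG00000020917, GRCm38 chr11:100476353-100528000, minus strand) cleaves cytosolic citrate to acetyl-CoA. Its levels were 5.38, 7.30, 8.03 and 6.73 CPM in controls and 3.77, 5.92, 4.09 and 5.97 CPM in knockouts. Only control 1 lay within the range of the knockouts. The log2 fold change was -0.48 (SE 0.22, 95% interval -0.94 to -0.02), with an unadjusted p of 0.042 and an edgeR adjusted p = 0.16, so a fall was not established over all tested genes.

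The acetyl-CoA carboxylases differed in depth and in what could be seen. Acacb (ENSMUSG00000042010, GRCm38 chr5:114146535-114250761), whose product sits at mitochondria and supplies the malonyl-CoA that restrains fatty acid entry, held 1060 to 1287 reads per library. It stood at 233.9 ± 9.90 CPM in controls and 245.4 ± 11.95 CPM in knockouts (SD, n = 4 each), and the 95% interval of its fold change, 0.936 to 1.17, bounds any difference closely. Acaca (ENSMUSG00000020532, GRCm38 chr11:84129672-84401651), the cytosolic isoform that feeds fatty acid synthesis, held only 14 to 41 reads. Its levels were 3.88, 8.31, 5.48 and 6.10 CPM in controls and 7.54, 7.45, 2.60 and 8.11 CPM in knockouts, and knockout 3 was far below the other knockouts. The interval of its fold change ran from 0.696 to 1.64, so a rise or a fall within it was not excluded (edgeR adjusted p = 0.88). Within groups its variance was 4.08 times that of counting noise.

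Fasn (ENSMUSG00000025153, GRCm38 chr11:120805846-120824547, minus strand), the enzyme that assembles palmitate, stood at 16.6, 22.3, 18.8 and 21.2 CPM in controls and 20.9, 18.3, 15.8 and 16.0 CPM in knockouts. The groups overlapped through most of their range. The fold change was 0.899 with a 95% interval of 0.737 to 1.10 (edgeR adjusted p = 0.52), which does not reach the rise seen in Thrsp.

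Both desaturase genes lie on chromosome 19. Scd1 (ENSMUSG00000037071, GRCm38 chr19:44394455-44407879) varied more between libraries of 1 genotype, relative to counting noise, than any of the other 9 genes. Its levels were 49.1, 24.3, 41.7 and 50.2 CPM in controls and 46.3, 30.4, 35.7 and 22.8 CPM in knockouts, with control 2 and knockout 4 low and control 4, control 1 and knockout 1 high. Within groups its variance was 15.3 times that of counting noise, against 0.756 to 4.08 times for the other 9 genes and a median of 1.70 over all tested genes. The log2 fold change of -0.29 had a 95% interval of -0.95 to 0.37 (edgeR adjusted p = 0.57). Scd2 (ENSMUSG00000025203, GRCm38 chr19:44293674-44306864), the isoform typical of brain and other tissues outside liver, stood at 9.27 ± 0.513 and 8.57 ± 1.51 CPM in controls and knockouts (SD, n = 4 each), which on the log2 scale is -0.11 (SE 0.18, edgeR adjusted p = 0.75).

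Dgat1 (ENSMUSG00000022555, GRCm38 chr15:76502015-76511953, minus strand), which catalyses the same reaction as Dgat2 and re-esterifies fatty acids taken up or released, did not rise with it. Levels were 22.8, 35.7, 31.3 and 29.6 CPM in controls and 28.5, 24.6, 24.7 and 25.4 CPM in knockouts. All controls but control 1 lay above every knockout. The log2 fold change was -0.21 (SE 0.13, 95% interval -0.48 to 0.05, edgeR adjusted p = 0.29).

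Genes that do related work were next set against each other within each library, as the log2 ratio of their reads with 0.5 added to each count. Such a ratio does not depend on how libraries are scaled. It compares the balance between genotypes and not the absolute level of 2 genes. Each of 5 ratios was tested by permuting the genotype labels exactly (two-sided), a design whose lowest p is 0.0286, with Benjamini-Hochberg adjustment over the 5. At that lowest p, the adjusted p of a ratio depends on how many of the 5 ratios share it. The rises of Thrsp, Acss2 and Dgat2 were known when the ratios were formed. A ratio holding 1 of these genes therefore restates that rise in part, and its p adds no independent support.

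The balance of reads between Acss2 and Acly, the genes of the sources of cytosolic acetyl-CoA, lay farther toward Acss2 in knockouts. Use of either source was not measured, and a fall of Acly itself was not established. The log2 ratio of Acss2 to Acly was 0, -0.36, -0.04 and 0.24 in controls and 1.61, 1.01, 1.35 and 1.04 in knockouts, so the groups did not overlap. On average there were 0.9747 Acss2 reads for each Acly read in controls and 2.38 in knockouts, a log2 difference of 1.29 (exact permutation p = 0.0286, adjusted p = 0.0476). Every knockout held more Acss2 than Acly reads.

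The balance of reads between the acyltransferase genes lay farther toward Dgat2 in knockouts, though a fall of Dgat1 itself was not established. The log2 ratio of Dgat1 to Dgat2 was 0.35, 0.78, 0.56 and 0.51 in controls and -0.18, -0.13, -0.16 and -0.15 in knockouts. Dgat1 had more reads than Dgat2 in every control and fewer in every knockout. The mean log2 ratio differed by -0.71 between genotypes (exact permutation p = 0.0286, adjusted p = 0.0476). Its SD was 0.02 in knockouts and 0.18 in controls. At 119 to 136 Dgat1 reads and 132 to 154 Dgat2 reads per knockout, counting error is wider than 0.02. No difference in spread between genotypes is therefore read from these SDs.

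Thrsp and its paralogue Mid1ip1, whose products are both known to act on acetyl-CoA carboxylase, were also compared. Mid1ip1 rose as well, from 17.1 ± 2.05 to 23.6 ± 4.07 CPM (mean ± SD of 4 libraries; log2 difference 0.46, SE 0.14, edgeR adjusted p = 0.028), but its call was lost in 7 of 17 alternatives, 5 of them with control 2 or 3 or knockout 2, 3 or 4 left out (adjusted p up to 0.102), and knockout 1 lay among the controls. The log2 ratio of Thrsp to Mid1ip1 was 0.08, 1.13, 0.40 and 0.45 in controls and 2.06, 1.34, 1.24 and 1.26 in knockouts (difference 0.96, exact permutation p = 0.0286, adjusted p = 0.0476). Control 2, the control with the most Thrsp, lay just below the lowest knockout at 1.24.

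No difference was found in the carboxylase and desaturase ratios. Acaca to Acacb differed by -0.03 (exact permutation p = 0.971) and Scd1 to Scd2 by -0.16 (exact permutation p = 0.657). Both sets overlapped, with SDs of 0.40 and 0.70 for the carboxylases and 0.42 and 0.48 for the desaturases in controls and knockouts.

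**Figure D3:**
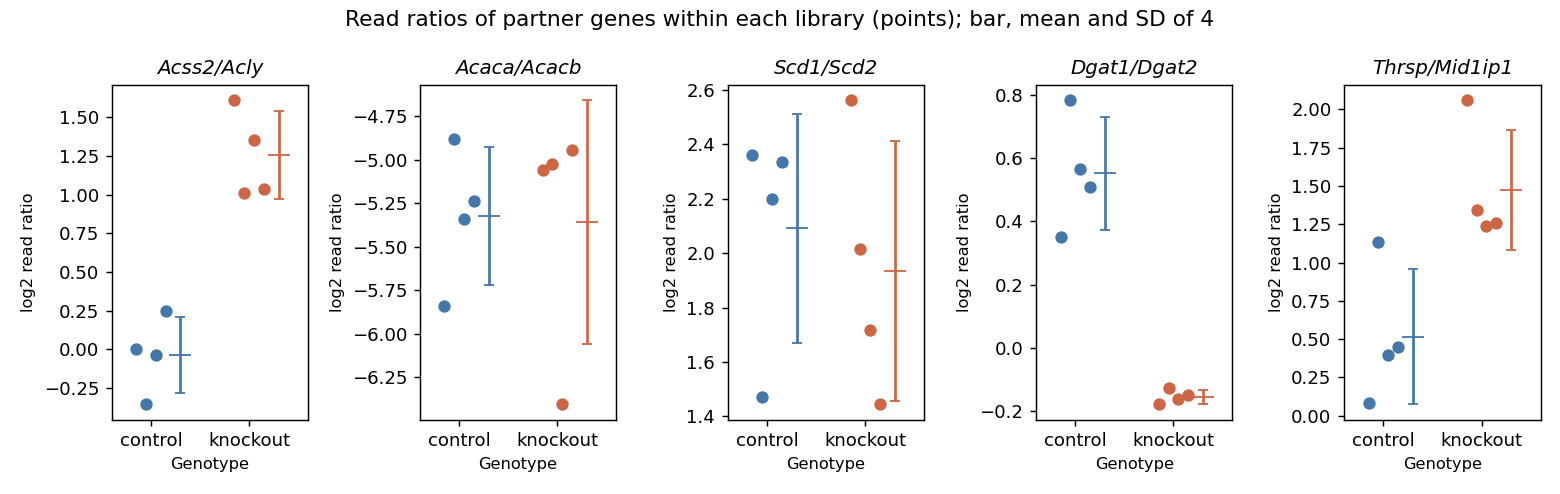
Log2 ratio of reads of partner genes in each library (points) by genotype, with the mean and SD of 4 libraries beside them; each panel has its own axis. The control and knockout points are separate for Acss2/Acly, Dgat1/Dgat2 and Thrsp/Mid1ip1 and mixed for Acaca/Acacb and Scd1/Scd2.

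Fat cells express most lipogenesis genes strongly, and adipocytes lie between muscle fibres, so their markers were read in the same libraries. In bulk RNA fewer cells of a type and less RNA per cell cannot be told apart. Of 14 white adipocyte markers 10 were tested and 0 passed in either direction in edgeR, against 15.7% of all tested genes. The summed level of the 14 markers ran from 400.1 to 621.4 CPM in controls and 532.3 to 590.7 CPM in knockouts. Fabp4, Cd36 and Lipe among them are also expressed outside fat cells. The 6 most specific markers (Adipoq, Lep, Retn, Cfd, Plin1 and Cidec) were present in every library and summed to 76.7, 33.6, 56.2 and 71.5 CPM in controls 1 to 4 and 81.5, 45.1, 57.8 and 38.0 CPM in knockouts 1 to 4. The genotypes overlapped fully on this sum (exact permutation p = 0.800). Ucp1, which defines brown fat cells, had 0 reads in all libraries, which allows up to 0.681 CPM. The 2 tested genes of the 5 on the brown adipocyte list were Cox7a1, which muscle fibres also express and which rose (log2 fold change 0.39, SE 0.10, edgeR adjusted p = 0.0079), and Cidea, which did not pass (0.55, SE 0.23, edgeR adjusted p = 0.12). The list summed to 637.5 to 812.8 CPM in controls and 809.3 to 1120.0 CPM in knockouts (exact permutation p = 0.0571), nearly all of it Cox7a1, and its part in the rises of the lipogenesis genes was not tested.

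Scd1 followed the sum of the 6 adipocyte markers closely. Over the 8 libraries Pearson's r of the log2 values was 0.96 (exact permutation p = 6.2e-04, adjusted p = 0.0043 over 7 genes) and Spearman's rho was 0.86 (exact permutation p = 0.011, adjusted p = 0.075). Without control 2 and knockout 4, the libraries farthest from the median sum, r was 0.91. The relation was looked for after the data had been seen, in the 7 genes whose groups overlap. With 4 libraries in each genotype it was not computed within genotypes. The other 6 genes gave r from -0.48 for Acly to 0.26 for Scd2, with adjusted p from 0.56 to 0.97 by exact permutation, and Fasn gave 0.02.

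In the controls, the library with the lowest sum, control 2, held the most Thrsp. Knockouts 2, 3 and 4 held Thrsp within 62.1 and 62.6 CPM while their adipocyte sums ran from 38.0 to 57.8 CPM, and knockout 1, with the highest sum of all libraries (81.5 CPM), also held the most Thrsp (73.7 CPM). With the log2 sum added to the edgeR design as a covariate, an alternative chosen after seeing the data, the log2 fold change was 1.39 for Thrsp, 0.79 for Acss2 and 0.51 for Dgat2, and all 3 still passed (edgeR adjusted p = 1.05e-08, 0.00235 and 0.00244). The sum averaged 59.5 CPM in controls and 55.6 CPM in knockouts, so this covariate could hardly move these fold changes. The fit therefore cannot decide the part of adipocytes in the rises, which was not tested. Scd1 had a value of -0.20 in that fit (edgeR adjusted p = 0.172).

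**Figure D4:**
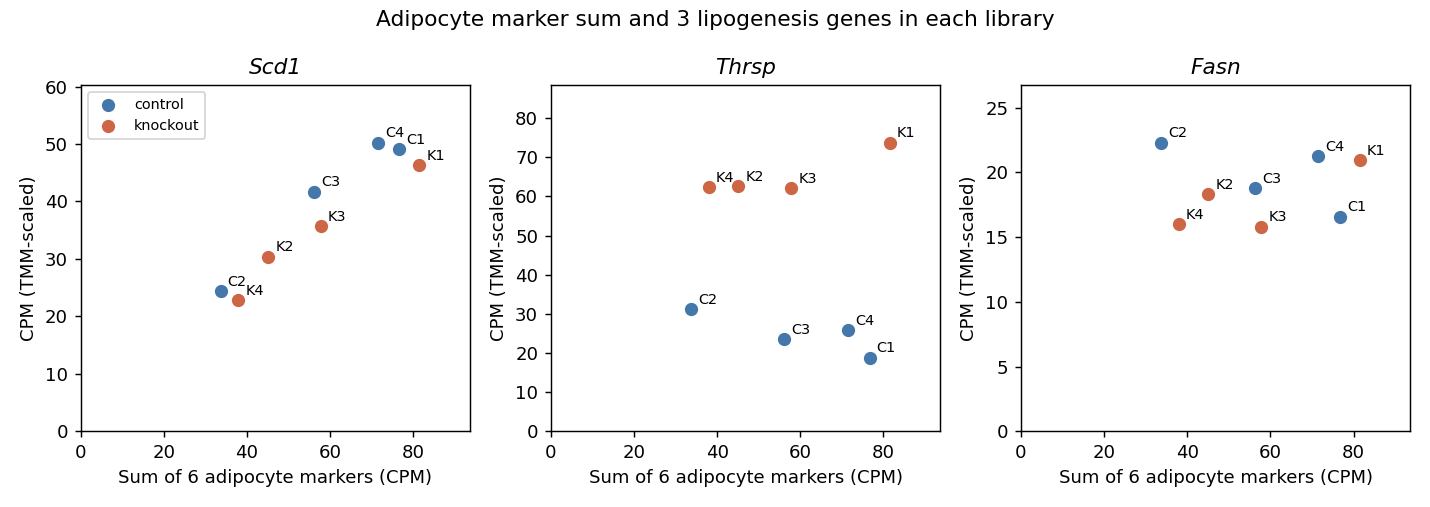
CPM of Scd1, Thrsp and Fasn (vertical axes from 0) against the summed CPM of 6 adipocyte markers (horizontal axis from 0) in each library, labelled C1 to C4 for controls and K1 to K4 for knockouts. Over the 8 libraries Scd1 is higher where the sum is higher, while the knockouts lie between 62.1 and 73.7 CPM of Thrsp across the whole range of the sum.

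Markers of other cell types were read in the same way, with 8.87% of all tested genes higher and 6.8% lower for comparison. None of the tested markers of Schwann cells (5), endothelium (7), red blood cells (5) or satellite cells (3) passed in edgeR. Of 7 tested macrophage markers 3 fell, and their list summed to 88.5 to 148.4 CPM in controls and 63.6 to 107.4 CPM in knockouts, while 1 of 7 fibroblast markers fell. Among 10 fibre markers 2 rose, the myoglobin gene Mb (log2 fold change 0.87, SE 0.12) and the actin gene Acta1 (0.26, SE 0.09). The fast myosin gene Myh4 fell (-0.31, SE 0.09). The myosin gene Myh2 had the largest value of the list (1.46, SE 0.41) and groups that did not overlap. It did not pass (edgeR adjusted p = 0.064), nor did Myh1 (0.67, SE 0.24, edgeR adjusted p = 0.11). Of the fibre markers 7 lay above 0 and 3 below. The part of these changes in the rises of Thrsp, Acss2 and Dgat2 was not tested.

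The regulators of lipogenesis moved less than Thrsp. Of 17 tested regulators 1 was higher and 2 lower, against 8.87% and 6.8% of all tested genes. Their median log2 fold change was -0.07. The number lower was 4 with library totals and 3 in most other alternatives. The number higher was 0 wherever the call of Mid1ip1 was lost and 2 with the 5 CPM filter or the adipocyte covariate. Srebf1, which encodes the insulin-driven activator of the pathway, stood at 9.05, 3.04, 8.42 and 9.25 CPM in controls and 5.03, 9.55, 9.85 and 8.96 CPM in knockouts, with 1 low library in each genotype (log2 fold change 0.18, SE 0.28, edgeR adjusted p = 0.74). Mlxipl, the gene of the carbohydrate-responsive factor ChREBP, had 88.5 ± 15.6 and 84.5 ± 8.55 CPM in controls and knockouts (-0.07, SE 0.11, edgeR adjusted p = 0.75). The called regulators besides Mid1ip1 both fell: Insig2 (-0.49, SE 0.13), whose product retains SREBP in the endoplasmic reticulum, and Rxra (-0.41, SE 0.08), the partner of many nuclear receptors.

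Among genes supplying carbon and NADPH, 3 of 13 tested were higher and 1 lower, against 8.87% and 6.8% of all tested genes. The median of the list was -0.05. The monocarboxylate transporter gene Slc16a1, which carries lactate, pyruvate and acetate across the plasma membrane, rose from 12.7 ± 2.66 to 23.1 ± 2.29 CPM (mean ± SD of 4 libraries; log2 difference 0.86, SE 0.15, edgeR adjusted p = 2.3e-04), and its groups did not overlap. The mitochondrial pyruvate carrier gene Mpc2 (0.31, SE 0.09) and the malate dehydrogenase gene Mdh1 (0.28, SE 0.09) rose by less, and neither call was secure. Mpc2 was no longer called without control 3, control 4, knockout 2 or knockout 4 (edgeR adjusted p = 0.0591 to 0.119), nor Mdh1 without control 1, 3 or 4 or knockout 1, 2 or 4 (0.058 to 0.138). The number higher was 1 without control 3, control 4, knockout 2 or knockout 4, and the number lower was 2 without control 3. Pcx, which makes oxaloacetate from pyruvate, fell (-0.46, SE 0.09). Malic enzyme 1 (Me1), a source of NADPH, stood at 182.3 ± 17.8 and 157.5 ± 35.0 CPM in controls and knockouts and did not pass (-0.21, SE 0.13, edgeR adjusted p = 0.33). Slc25a1, the citrate exporter of mitochondria, held 7 to 14 reads per library and was not tested.

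In elongation, desaturation and fatty acid activation 2 of 15 tested genes were higher and 2 lower, against 8.87% and 6.8% of all tested genes. The median of the list was 0.00. The activating enzymes moved in opposite directions: Acsl3 fell from 38.5 ± 2.20 to 22.1 ± 2.77 CPM and Acsl6 from 10.7 ± 2.46 to 5.92 ± 0.502 CPM, while Acsl1, a major isoform of muscle and fat, went up from a mean of 186.0 ± 10.9 to one of 231.4 ± 15.7 CPM (SD over 4 libraries). The call of Acsl1 was lost without control 3 (edgeR adjusted p = 0.051) or knockout 4 (0.052). Fads6, a gene of the desaturase family, rose from 6.80 ± 2.22 to 12.2 ± 1.85 CPM, though knockout 1 overlapped the controls. Fads1 held 7 to 25 reads (log2 fold change -0.03, SE 0.35), and the elongase and desaturase genes Elovl6 and Fads2 held at most 4 and 5 reads in a library and were not tested.

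In glycerolipid assembly and lipid droplets 2 of 17 tested genes rose and 2 fell, against 8.87% and 6.8% of all tested genes. The median of the list was 0.06. Plin3, a droplet coat gene, stood at 38.1, 32.8, 36.02 and 35.1 CPM in controls and 53.8, 54.8, 57.6 and 52.1 CPM in knockouts (log2 fold change 0.62, SE 0.10, edgeR adjusted p = 5.7e-05). Fitm1, which promotes droplet formation in muscle, went from 137.4 ± 6.28 to 202.5 ± 9.19 CPM (mean ± SD of 4 libraries; log2 difference 0.56, SE 0.08). Groups were well separated in both. Lpin1, a phosphatidate phosphatase gene, fell by 0.41 (SE 0.09) and Agpat1, which acylates lysophosphatidate, by 0.37 (SE 0.09) on the log2 scale.

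The next list held 13 tested genes of malonyl-CoA breakdown, carnitine-linked fatty acid transfer, and the AMP-activated kinase with its upstream kinase. Of these 2 were higher and 2 lower, against 8.87% and 6.8% of all tested genes, and the median was -0.25. The number lower was 4 without knockout 1, 1 without knockout 3 and 5 with no filter on low counts. It was 3 in several other alternatives, among them all 3 scalings. Slc25a20, the carnitine carrier (0.50, SE 0.10), and Cpt2, the inner carnitine palmitoyltransferase (0.36, SE 0.09), rose. Prkag3, a muscle subunit of the AMP-activated kinase that inhibits acetyl-CoA carboxylases, fell from 229.0 ± 19.5 to 131.3 ± 16.5 CPM (SD, n = 4 each). Stk11, the upstream kinase LKB1, fell too (-0.31, SE 0.09), a call lost without knockout 3 (edgeR adjusted p = 0.055). Cpt1b, the muscle gene of the step that malonyl-CoA inhibits, is listed at 0 reads in all 8 libraries, so nothing can be said of it.

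**Figure D5:**
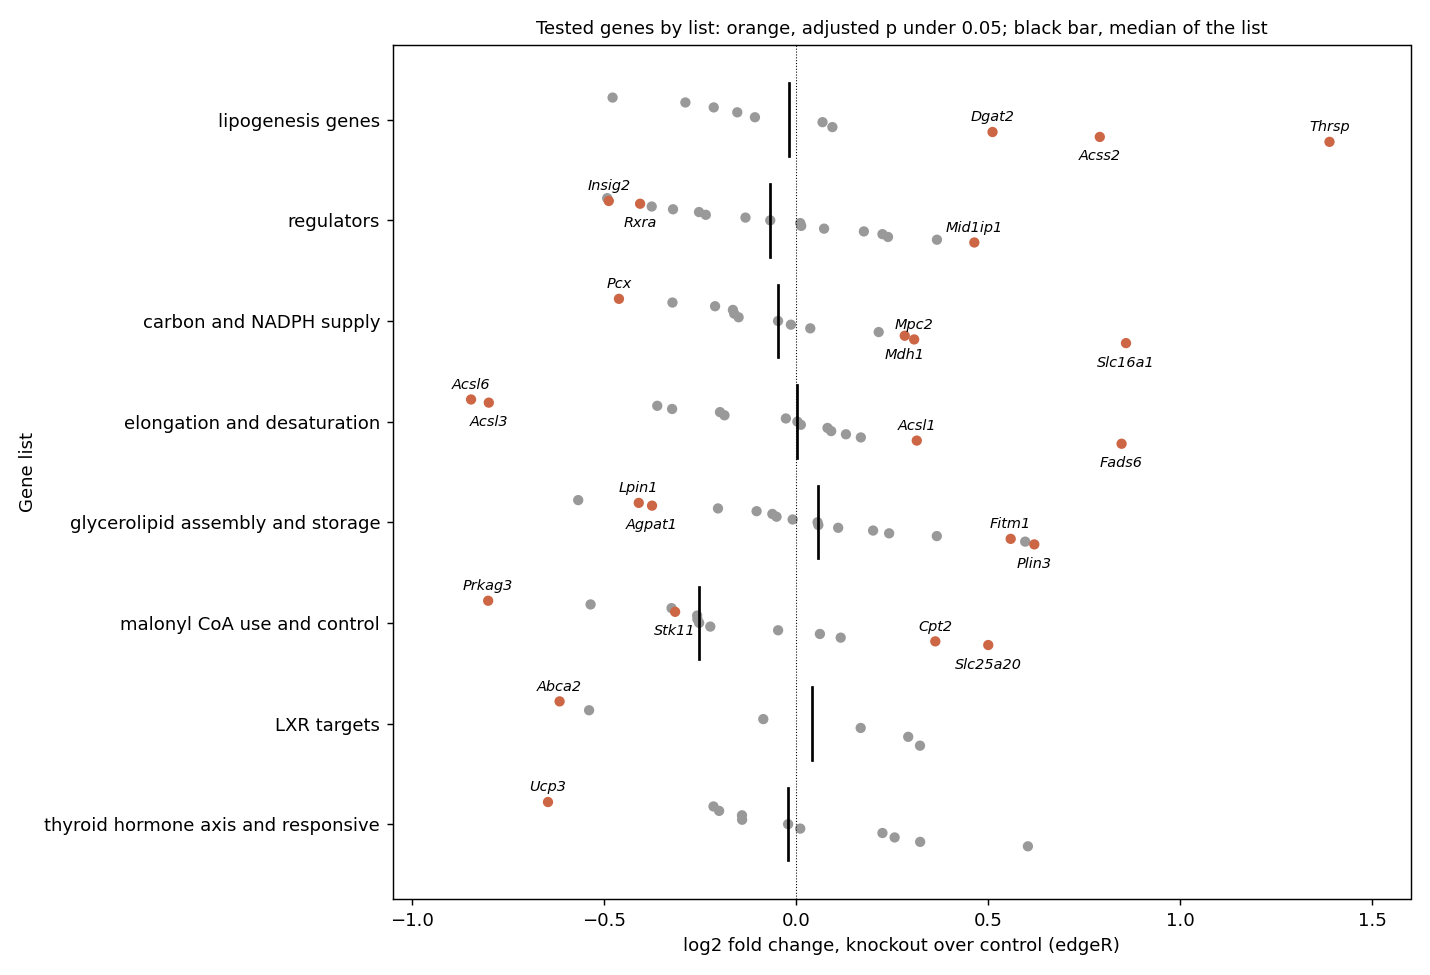
Log2 fold change (knockout over control) of every tested gene of the lipogenesis set and of 7 related lists, 1 row per list, with orange for an adjusted p under 0.05 and a black bar at the list's median. Thrsp (1.39) lies farther from 0 than any other gene drawn, and each list's median lies between -0.25 and 0.06.

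The genes whose profiles were most like those of Thrsp and Acss2 were found by the root mean square difference of log2 CPM over the 8 libraries, after subtracting each gene's control mean, among 9640 tested genes. For Thrsp they were Kcp (difference 0.17), Hfe (0.20) and Mpp3 (0.20). Kcp was near the floor of counting in controls at 0.924 ± 0.257 CPM, and Hfe, an iron-regulating gene, stood at 10.5 ± 1.72 CPM in controls and 31.5 ± 1.03 CPM in knockouts (SD, n = 4 each) and rose. For Acss2 they were Ppp1r1a (0.13), a protein phosphatase inhibitor gene that rose from 39.0 ± 5.39 to 62.1 ± 3.38 CPM, the olfactory receptor gene Olfr920 (0.13), which did not pass the test (edgeR adjusted p = 0.083), and the peroxisome gene Pex10 (0.13), whose call was lost in 9 of 17 alternatives (adjusted p up to 0.134). Likeness here means only a similar size of difference and a similar spread over these libraries.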

How the data were processed

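Quadriceps RNA was measured in 8 libraries, 4 per genotype, grouped by the genotype labels, with replicates numbered in accession order. Per the file headers, each library has its own table of raw counts by Ensembl gene, as deposited. Tools in the submitters' processing notes are featureCounts, Subread 1.6.2 and Bowtie2 2.3.4.1, with GRCm38 and mm10 as builds. For the annotation release, strand setting and multiply mapped reads, the entry is "not given in the sources used here". Symbols and coordinates come from GENCODE M21 (GRCm38), which held 54409 of 54532 gene IDs.

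The test was run in edgeR 4.0.16 (R 4.3.3): filterByExpr (minimum count 10, minimum total 15; 10691 genes with at least 99.5% of the reads of each library), TMM scaling and the robust quasi-likelihood test, with Benjamini-Hochberg adjustment over all tested genes and a threshold of 0.05. SE came from the log2 fold change and the square root of F. The procedure was tested on simulated counts. No 2 libraries agreed within sampling noise: chi-square per degree of freedom was at least 2.33 in every pair. Alternatives were DESeq2 1.42.0, limma 3.58.1 (voom), 3 scalings, 2 filters, non-robust fits and each library left out. The named genes were the 10 members, Gpcpd1, 8 partners, up to 4 called genes of lowest p in each other list and the 3 genes nearest in profile to Thrsp and to Acss2; where another is named, it was chosen after its values were seen. The members and lists were chosen with earlier results of these data known. The sterol list is not reported here as a whole.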

Additional observations from a re-analysis of the deposited data

Results flagged for a closer look

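A library far from the others of its genotype was flagged in 5 of 34 groups of 4 libraries examined (gap to the nearest library over the range, above Dixon's 95% critical value), and chance flags about 1 group in 20. Thrsp in knockout 1 stood at 73.7 CPM, against 62.1 to 62.6 CPM in the other knockouts, and its log2 ratio to Mid1ip1 there was 2.06, against 1.24 to 1.34. Acaca in knockout 3 stood at 2.60 CPM, against 7.45 to 8.11 CPM in the other knockouts, and its log2 ratio to Acacb there was -6.41, against -5.06 to -4.94. Dgat2 in control 1 stood at 17.9 CPM, against 20.7 to 21.1 CPM in the other controls. The causes were not tested.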

How the results depend on the processing

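Under each of 17 alternatives Thrsp, Acss2 and Dgat2 remained higher and were the only members called, with log2 fold changes of 1.28 to 1.51, 0.70 to 0.88 and 0.45 to 0.54 and adjusted p of at most 7.3e-07, 0.014 and 0.017. Counts over all genes stayed within 1.5 times of the main counts, and Gpcpd1 kept its fall. Adjusted p of Acly ran from 0.10 to 0.33 and of Dgat1 from 0.086 to 0.57. The sign of values near 0 changed for Acaca without control 1 or knockout 4 (range with 1 library left out -0.059 to 0.37), for Srebf1 (-0.097 to 0.34) and Mlxipl (-0.17 to 0.0078) without control 2, and for Fads1 with limma voom (0.072), with the adipocyte covariate (0.0049) and without control 4, knockout 3 or knockout 4 (-0.29 to 0.37), and the cause was not tested. Mid1ip1 was no longer called with DESeq2 (adjusted p = 0.057), with library totals (0.058) or without control 2, control 3, knockout 2, knockout 3 or knockout 4 (0.057 to 0.10). A pseudocount of 2 left the 5 ratios on the same side of the threshold. With a library left out the ratios were taken as values with no test. None then moved by as much as the larger of its control and knockout SDs. The relation of Scd1 to the adipocyte sum kept r between 0.95 and 0.97. No paired analysis was possible because the labels give the groups no shared replicate numbers. Genes with few reads (Acss2, Acly, Acaca) limit what can be seen.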

Other observations

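Fdft1, the squalene synthase gene of sterol synthesis, rose (log2 fold change 0.42, SE 0.12), though its call was lost without control 4, knockout 2 or knockout 4 (edgeR adjusted p = 0.0689, 0.0751 and 0.0605). Of 6 tested targets of the liver X receptor 1 was lower and 0 were higher, against 6.8% and 8.87% of all tested genes. The lower gene was the transporter gene Abca2 (-0.62, SE 0.16). The number lower was 2 without control 4 or without knockout 4.

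Thrsp is a classical thyroid hormone target. Over all tested genes 8.87% were higher and 6.8% lower. Of 11 tested genes of the thyroid hormone axis and its responsive genes 0 were higher and 1 was lower, with a median of -0.02. The number higher was 1 without control 1, without knockout 1, with no filter, with the 5 CPM filter and with the adipocyte covariate, and the number lower was 2 without knockout 1, with library totals and with the covariate. The lower gene was Ucp3, a mitochondrial carrier gene of muscle, at 85.9, 69.1, 58.1 and 74.6 CPM in controls and 37.1, 47.4, 41.4 and 58.0 CPM in knockouts (log2 fold change -0.65, SE 0.13, edgeR adjusted p = 0.0021). The highest knockout and the lowest control of Ucp3 were nearly level. The receptor gene Thra stood at 142.7 ± 5.30 CPM in controls and 166.9 ± 7.64 CPM in knockouts (SD, n = 4 each), groups that did not overlap, and just missed the threshold (edgeR adjusted p = 0.058).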
